A study of Mus musculus with 18 samples.

Results

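The AMPA receptor is the glutamate-gated channel that carries most fast excitatory transmission in the hippocampus. Its 4 pore-forming subunits (*Gria1*, *Gria2*, *Gria3* and *Gria4*) and 6 of its auxiliary proteins (*Cacng2*, *Cacng3*, *Cacng8*, *Cnih2*, *Cnih3* and *Shisa9*) were followed at the level of mRNA in WT and *Ccny* KO mice. The genes were chosen by name because cyclin Y, the product of *Ccny*, is known to restrain the delivery of AMPA receptors to the cell surface. All 10 genes were among the 15329 genes listed.

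Hippocampal tissue came from C57BL/6J mice that were 8 to 10 weeks old, with 6 groups of 3 mice and 1 library per mouse. WT_Basal and KO_Basal mice were not trained, WT_OL and KO_OL mice had original learning in the Morris water maze, a swimming task in which a hidden platform is found from cues around the pool, and WT_RL and KO_RL mice had original and then reversal learning, in which the platform is moved. KO mice carried the *Ccny* knockout of an earlier study, and no other allele or agent is named for any group. Levels are read counts scaled to library size (CPM) and normalized between libraries, deposited as log2 values. Libraries held from 29248557 to 37915576 reads on these genes.

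A receptor is assembled from several GRIA subunits around 1 pore. Channels that hold the GRIA2 subunit pass little calcium, because the message for its pore loop is edited at the Q/R site, while channels without it pass calcium and are open to block by polyamines. The auxiliary proteins are membrane proteins that bind to the assembled subunits: the TARPs (*Cacng2*, or stargazin, *Cacng3* and *Cacng8*) carry receptors to the membrane and hold them at the synapse through a binding site for PSD-95 at their last residues, the cornichons (*Cnih2* and *Cnih3*) assist export from the endoplasmic reticulum and slow channel closure, and *Shisa9*, also called CKAMP44, alters desensitization.

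The stretches of coding sequence below are shown because the first holds the codon on which the calcium permeability of a subunit depends, and the second the end that anchors a TARP. They are the 45 coding bases around the Q/R site of each subunit, 5′ to 3′ on the coding strand, with the codon of the site in capitals, taken from GENCODE M21 transcripts on GRCm38. They start at coding base 1777 in *Gria1*, 1798 in *Gria2*, 1813 in *Gria3* and 1801 in *Gria4*.
Gria1: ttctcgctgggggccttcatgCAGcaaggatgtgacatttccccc
Gria2: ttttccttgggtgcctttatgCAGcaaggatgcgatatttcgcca
Gria3: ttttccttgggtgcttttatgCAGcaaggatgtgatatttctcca
Gria4: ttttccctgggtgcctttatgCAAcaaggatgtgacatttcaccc
All 4 genes encode glutamine here, and *Gria2* becomes arginine only after editing of its RNA, which counts of reads per gene do not show. *Gria2* and *Gria3* shared 42 of the 45 bases, and *Gria1* and *Gria2* 36.

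The last 42 coding bases of the 3 TARP genes follow, with the codons of the last 4 residues in capitals before the stop codon.
Cacng2: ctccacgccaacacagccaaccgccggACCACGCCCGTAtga
Cacng3: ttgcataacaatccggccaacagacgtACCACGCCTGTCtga
Cacng8: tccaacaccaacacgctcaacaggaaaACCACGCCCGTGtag
The capitals encode the same 4 residues in each gene, and over the whole stretch *Cacng2* shared 29 of 42 bases with *Cacng3* and 27 with *Cacng8*.

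*Ccny* itself was lower in KO than in WT mice, at 74.0 to 95.8 CPM against 107 to 158 CPM, and over the 3 training states its log2 difference was −0.72 ± 0.06 (SE; limma, adjusted p = 3.31e-05). Its message was thus reduced and still counted in KO mice. Markers of hippocampal neurons were present in every library, with summed levels of 416 to 725 CPM for 5 markers of CA1, 448 to 709 CPM for 4 of CA3 and 214 to 506 CPM for 6 of dentate granule neurons. The libraries differed in how values followed the GC content of transcripts. The correlation across genes between the deviation of a library from the mean of all libraries and GC content lay between −0.53 and −0.33 in the 6 untrained libraries and between −0.03 and 0.39 in the 12 trained ones. Training and this trend cannot be told apart by design, so the changes called with training are also given after a correction that removed the trend with GC content from each library. WT_OL replicate 2 stood apart, with the lowest value of all 18 libraries for 5 of the 10 members (*Gria1*, *Gria2*, *Gria3*, *Cacng2* and *Shisa9*). The share of all genes lowest in it is not given. It stood apart over the whole table too: its deviations had an SD of 0.35 (log2), against 0.15 to 0.27 in the other libraries. Deviations also followed exon length, with a correlation of −0.47 in this library and up to 0.50 in KO_RL replicate 2. *Gria2* and *Gria3* have more exon bases than 97.7% and 90.1% of genes. The changes in WT_OL mice with an unadjusted p under 0.05 are therefore also given without WT_OL replicate 2. KO_Basal replicate 1 had the highest summed level of 6 hypothalamic markers (103 CPM, median of all libraries 3.74) and the lowest of CA1 and of CA3 markers. Among the members it was lowest for *Cacng8* and highest for *Gria4* and *Shisa9*. Without it 0 of 10 members were called in KO_OL or KO_RL against KO_Basal. The part of these markers in the changes of the members was not tested.

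Per kilobase of annotated exon, the cornichon *Cnih2* and the subunit *Gria1* were the most abundant of the 10 messages. Over the 18 libraries the median level was 239 CPM per kb for *Cnih2* and 182 for *Gria1*. *Gria2* followed at 51.5 CPM per kb, above *Cacng8* in every library. *Cnih2* was above *Gria1* and *Gria1* above *Gria2* in all 18 libraries too.

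The lower part of the order was less firm. *Cacng8*, the TARP most typical of hippocampus, had a median of 33.7 CPM per kb, *Cnih3* 26.6 and *Gria3* 22.8. *Cacng8* was above *Cnih3* in 15 libraries, *Cnih3* above *Gria3* in 17 and *Gria3* above *Cacng3* in 16. With the length of the longest transcript in place of all exons, *Gria3* took the fourth place, ahead of *Cacng8* and *Cnih3*. *Cacng3* had a median of 17.2 CPM per kb, *Gria4* 11.7, *Shisa9* 10.5 and *Cacng2* 8.26. *Cacng3* was above *Gria4* in all 18 libraries, *Gria4* above *Shisa9* in 13 and *Shisa9* above *Cacng2* in 15. The annotated model of *Cacng8* holds little sequence past its stop codon, so its length and GC content are those of a short model.

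**Figure D1:**
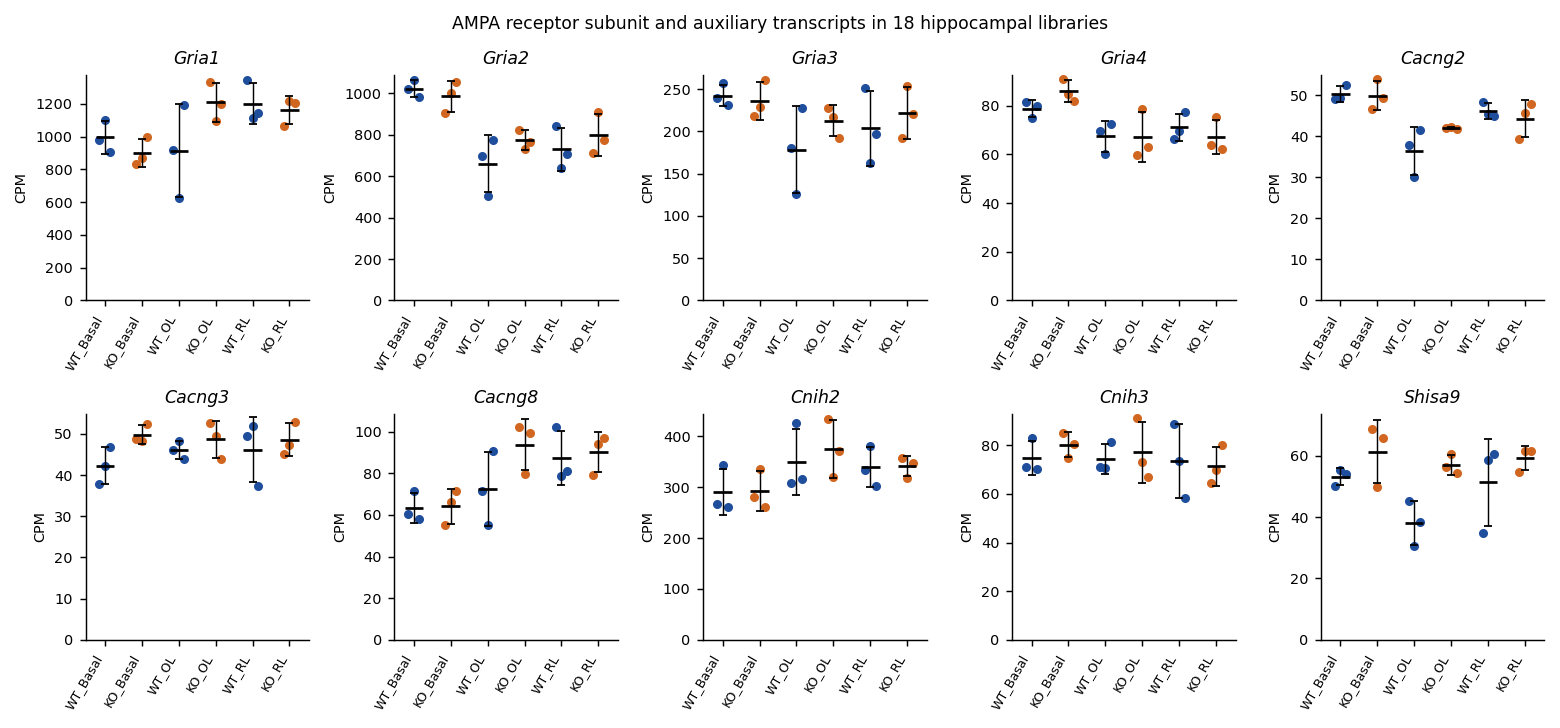
Level of each of the 10 messages in CPM (vertical axes, starting at 0) in the 6 groups (horizontal axes). Points are mice, blue for WT and orange for *Ccny* KO, thick bars are means and thin bars SD (n = 3); *Gria2* and *Cacng2* sit lower in the WT_OL mice than in the WT_Basal mice, and *Cacng8* sits higher in the KO_OL than in the KO_Basal mice.

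Original learning in WT mice was compared first. *Gria2* and *Cacng2* fell, and no member rose: 2 of 10 members passed an adjusted p of 0.05, both lower, where 9.5% of all genes passed in either direction. By unadjusted p under 0.05 it was 5 of 10, where 25.9% of all genes passed. The median log2 change of the 10 members was −0.20, against 0.00 for all genes. Marker sums of cell types were set beside these groups. Of those given here the pituitary and the oligodendrocyte precursor ranges did not overlap. Oligodendrocyte precursor markers summed to 202 to 215 CPM in WT_Basal and to 217 to 250 CPM in WT_OL, with 0 of 5 called. Excitatory neuron markers summed to 5059 to 6191 CPM in WT_Basal and to 5834 to 6858 CPM in WT_OL, with 0 of 5 called. CA1 markers summed to 501 to 624 and 515 to 631 CPM, also with 0 of 5 called. Dentate granule markers summed to 345 to 394 CPM in WT_Basal and to 214, 264 and 481 CPM in WT_OL, with 0 of 6 markers called. Striatal markers, with 5 of 6 symbols listed, summed to 29.4, 177 and 185 CPM in WT_Basal and to 32.1 to 43.6 CPM in WT_OL, with 0 called. *Drd1a*, the symbol not listed, is another symbol of *Drd1*, which was. Of 5 astrocyte markers 1 was called higher (summed level 1729 to 1925 and 1819 to 2320 CPM), and of 2 listed pituitary markers 1 was called lower (0.0666 to 35.8 and 0.0297 to 0.0593 CPM), with 1 of the 2 at 0 in all WT_OL mice. Their part in the changes of the members was not tested.

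*Gria2* (chr3:80681450-80802835, minus strand) had 1023, 1063 and 981 CPM in the WT_Basal mice. In the WT_OL mice it had 699, 507 and 774 CPM. Every WT_OL mouse was below every WT_Basal mouse. The log2 change was −0.65 ± 0.14 (SE), a fall of the mean level from 1022 ± 41.4 to 660 ± 138 CPM (SD, n = 3; limma, adjusted p = 0.00876). Leaving out any 1 mouse kept the adjusted p at 0.0333 or less, and without WT_OL replicate 2 the change was −0.47. The call was lost when only the 6 libraries compared were fitted (adjusted p = 0.106). After the GC correction the change was −0.31 (adjusted p = 0.204, limma). In bulk tissue, fewer cells that express a gene and less RNA of it per cell cannot be told apart.

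*Cacng2* (chr15:77991748-78120028, minus strand), the founding TARP, had 49.0, 49.3 and 52.5 CPM in the WT_Basal mice. In the WT_OL mice it had 37.8, 30.1 and 41.5 CPM. Here too the groups did not overlap. The log2 change was −0.46 ± 0.10 (limma, adjusted p = 0.00871), and after the GC correction it was −0.51 (adjusted p = 0.0167). Leaving out any 1 mouse gave −0.56 to −0.34, with an adjusted p of at most 0.0452. Without WT_OL replicate 2 it was −0.34. Fitting only the 6 libraries compared ended this call too (adjusted p = 0.114, limma). Where reads are counted without regard to strand, 323 exonic bases of an antisense gene that is not listed could add to *Cacng2*.

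*Shisa9* (chr16:11984113-12270902, plus strand), *Gria3* (chrX:41400854-41678601, plus strand) and *Gria4* (chr9:4417896-4796234, minus strand) were also below the range of WT_Basal in all 3 WT_OL mice without passing the test. *Shisa9* had 45.2, 30.6 and 38.4 CPM after 50.04, 55.5 and 54.1 CPM in untrained mice (log2 change −0.49 ± 0.18, limma, adjusted p = 0.0897). *Gria3* had 181, 126 and 228 CPM after 239, 257 and 232 CPM (−0.48 ± 0.18, limma, adjusted p = 0.0988). *Gria4* had 69.4, 60.2 and 72.5 CPM after 81.4, 74.8 and 79.9 CPM (−0.23 ± 0.10, limma, adjusted p = 0.18). With *Gria2* and *Cacng2* these made 5 of 10 members whose groups did not overlap, all lower, where 28.3% of all genes had groups that did not overlap in 1 direction or the other. Without WT_OL replicate 2 the changes were −0.34 for *Shisa9*, −0.25 for *Gria3* and −0.15 for *Gria4*. Without WT_OL replicate 3 the change of *Gria3* was −0.68 and passed (limma, adjusted p = 0.0155).

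*Gria1* (chr11:57011387-57330244, plus strand), the most abundant subunit, did not separate the groups. It had 979, 1103 and 905 CPM in the WT_Basal mice and 917, 626 and 1195 CPM in the WT_OL mice. The WT_OL mice spanned the whole range of the untrained group, and the log2 change was −0.17 ± 0.17 (limma, adjusted p = 0.575). Without WT_OL replicate 2 it was 0.08. *Cacng8*, *Cacng3*, *Cnih2* and *Cnih3* had overlapping groups, and the adjusted p of these 4 was 0.276 or more.

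Original learning in KO mice gave another set of calls. *Cacng8* rose and *Gria4* fell, which is 2 of 10 members where 23.5% of all genes passed, and 5 of 10 had groups that did not overlap, where 48.8% of all genes did. By unadjusted p under 0.05 it was 6 of 10, where 36.6% of all genes passed. The median log2 change of the 10 members was −0.08, against −0.01 for all genes.

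*Cacng8* (chr7:3390683-3415648, plus strand) had 54.9, 66.1 and 71.5 CPM in the KO_Basal mice. In the KO_OL mice it had 102, 79.5 and 99.4 CPM. The lowest trained mouse was above the highest untrained one. The log2 change was 0.54 ± 0.16 (limma, adjusted p = 0.0239). It was 0.39 after the GC correction (adjusted p = 0.143), and leaving out 1 mouse at a time gave 0.43 to 0.65. The call was lost in 4 of these 6 fits, without KO_Basal replicate 1 or 2 and without KO_OL replicate 1 or 3, with an adjusted p of up to 0.111.

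*Gria4* had 91.1, 84.9 and 82.1 CPM in the KO_Basal mice and 59.9, 78.7 and 62.9 CPM in the KO_OL mice. The groups did not overlap. The log2 change was −0.36 ± 0.10 (limma, adjusted p = 0.0189), and −0.26 after the GC correction (adjusted p = 0.0609). The call was lost without KO_Basal replicate 1 and without KO_OL replicate 1 or 3, with an adjusted p of up to 0.0974. *Gria4* is enriched in interneurons. The summed level of 9 interneuron markers was 1157 to 1200 CPM in KO_Basal and 1236 to 1282 CPM in KO_OL. Of these markers 1 was called higher and 1 lower, with a median log2 change of 0.08. Their part in the result was not tested.

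*Gria1* was higher in each KO_OL mouse than in each KO_Basal mouse, at 1335, 1096 and 1197 CPM against 833, 872 and 997 CPM (log2 change 0.42 ± 0.17, limma, adjusted p = 0.083). The GC correction left it at 0.42. *Gria2* was lower in each trained KO mouse, at 826, 730 and 767 CPM against 906, 1002 and 1053 CPM (−0.35 ± 0.14, limma, adjusted p = 0.0809). After the GC correction its change was 0.08, with the sign turned. *Cacng2* was at 42.0, 42.3 and 41.8 CPM after 46.7, 53.9 and 49.2 CPM (−0.24 ± 0.10, limma, adjusted p = 0.0879). *Cnih2* (chr19:5092868-5098521, minus strand) had 435, 319 and 371 CPM in KO_OL and 280, 336 and 261 CPM in KO_Basal, which overlap (0.35 ± 0.15, limma, adjusted p = 0.0903).

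KO_Basal and KO_OL mice also differed in choroid plexus markers, which belong to the epithelium lining the ventricle next to the hippocampus. The summed level of 9 such markers was 49.3 to 674 CPM in KO_Basal and 2430 to 4694 CPM in KO_OL, none of the 9 was at 0 throughout, and all 9 were called higher in KO_OL. Other marker lists had calls there too, where 23.5% of all genes passed. Higher in KO_OL were 1 of 5 markers of CA1, 1 of 4 of CA3 and 1 of 5 of excitatory neurons. Lower were 1 of 6 of dentate granule neurons and 1 of 5 of astrocytes. Of 9 interneuron markers 1 was higher and 1 lower. The part of these lists in the changes of the members in KO mice was not tested.

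**Figure D2:**
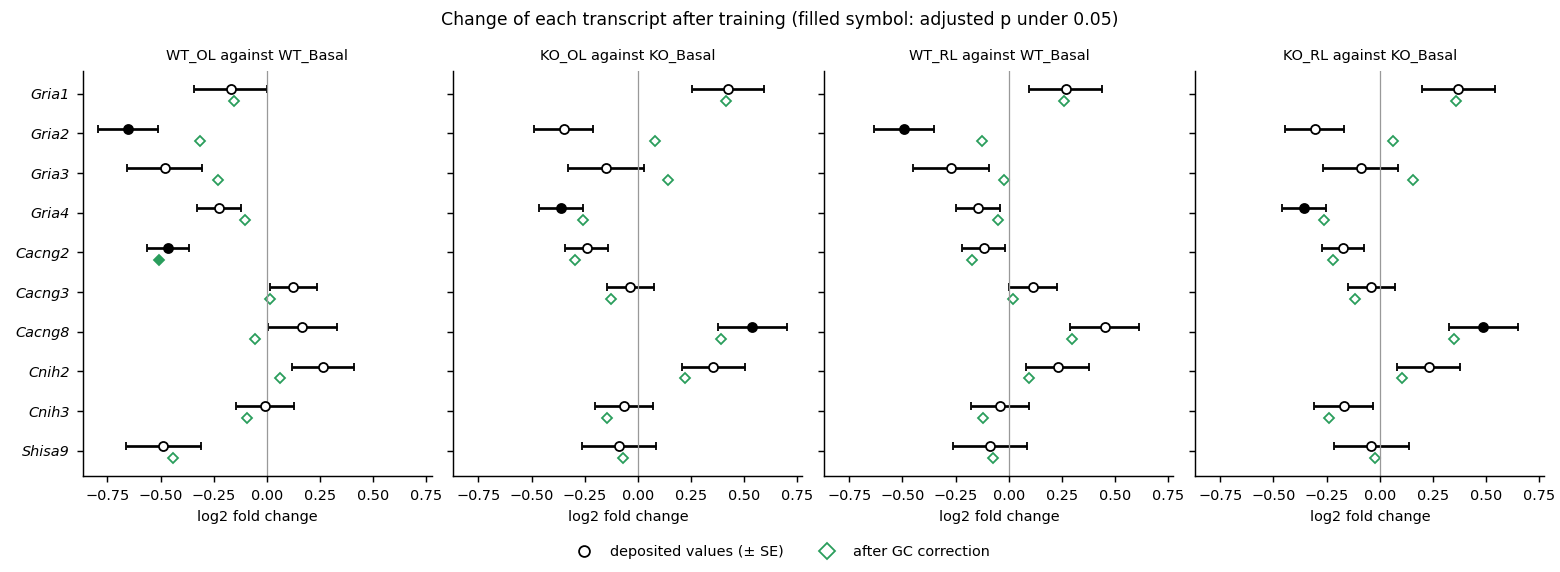
Log2 fold change of each of the 10 messages (horizontal axes) in the 4 comparisons of trained with untrained mice. Black circles with bars are the deposited values with SE and green diamonds the values after the GC correction, filled where the adjusted p is under 0.05; after correction the filled symbol that is left is that of *Cacng2* in WT_OL against WT_Basal.

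After original and reversal learning, WT mice were again compared with WT_Basal, the group that also served the comparison above. *Gria2* fell, the only 1 of 10 members to pass where 15.7% of all genes did. By unadjusted p under 0.05 it was 2 of 10, where 30.3% of all genes passed. It had 842, 640 and 708 CPM in the WT_RL mice, all below the WT_Basal mice. The log2 change was −0.49 ± 0.14 (limma, adjusted p = 0.0257). After the GC correction it was −0.13 (adjusted p = 0.563). Leaving out any of the WT_Basal mice, or WT_RL replicate 2 or 3, ended the call, with an adjusted p of up to 0.106. *Cacng8* was higher in each WT_RL mouse, at 102, 78.6 and 81.0 CPM after 60.6, 71.7 and 58.1 CPM (0.45 ± 0.16, limma, adjusted p = 0.0684). *Gria1* was higher in each WT_RL mouse and *Cacng2* lower, so 4 of 10 members had groups that did not overlap, where 34.3% of all genes did. Choroid plexus markers summed to 867 to 4390 CPM in WT_Basal and to 44.5 to 8497 CPM in WT_RL, with 0 of 9 called. Dentate granule markers summed to 345 to 394 and 430 to 487 CPM, without overlap, with 0 of 6 called. Oligodendrocyte precursor markers summed to 202 to 215 and 216 to 247 CPM, also without overlap, with 0 of 5 called. Of 6 thalamic and habenular markers 1 was called higher, and of 2 listed pituitary markers 1 lower. The part of these markers in the changes of the members was not tested.

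KO mice after original and reversal learning were compared with KO_Basal. *Cacng8* rose and *Gria4* fell, 2 of 10 where 23.6% of all genes passed. By unadjusted p under 0.05 it was 4 of 10, where 36.6% of all genes passed. *Cacng8* had 79.3, 94.0 and 97.2 CPM in the KO_RL mice (log2 change 0.49 ± 0.16 against KO_Basal, limma, adjusted p = 0.0383). *Gria4* had 63.8, 75.2 and 62.3 CPM (−0.36 ± 0.10, limma, adjusted p = 0.0202). Neither group of KO_RL values overlapped with KO_Basal. After the GC correction *Cacng8* was at 0.35 (adjusted p = 0.18, limma) and *Gria4* at −0.26 (adjusted p = 0.0516, limma). Leaving out KO_Basal replicate 1 or 2 or KO_RL replicate 2 or 3 ended the call of *Cacng8*, and leaving out KO_Basal replicate 1 or 2 or KO_RL replicate 1 or 3 that of *Gria4*. KO_OL and KO_RL share KO_Basal as control, so these calls are not independent of those after original learning. *Gria1* was above KO_Basal in each KO_RL mouse, at 1063, 1220 and 1207 CPM (0.37 ± 0.17, limma, adjusted p = 0.128), which made 3 of 10 members with groups that did not overlap, where 45.3% of all genes had such groups. *Gria2* had 712, 912 and 777 CPM, which overlapped with KO_Basal (−0.31 ± 0.14, limma, adjusted p = 0.123), and its change after the GC correction was 0.06. Of the choroid plexus markers, 7 of 9 were called higher in KO_RL than in KO_Basal. Called higher too were 1 of 5 markers of CA1, 1 of 4 of CA3 and 1 of 5 of excitatory neurons. Lower were 1 of 6 of dentate granule neurons and 1 of 5 of astrocytes. The part of these markers was not tested.

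The position of each member along GC content was set beside these changes. *Gria2* had a GC content of 36.8% in its longest transcript, lower than all but about 1.01% of listed genes, and *Cacng8* one of 65.0%, above 99.5% of them. Among the 822 genes with a GC content of 35% to 40%, the median log2 change after original learning was −0.30 in WT and −0.35 in KO mice. The change of *Gria2* was larger than that median in WT mice and equal to it, to 2 decimals, in KO mice. The 62 genes with a GC content of 65% to 70% had median changes of 0.18 in WT and 0.10 in KO mice, so *Cacng8* lay near the median in WT and above it in KO mice. *Cacng2* at 51.2% and *Gria1* at 48.5% lie near the middle of the scale, and the correction moved their changes with training by less than the SE.

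**Figure D3:**
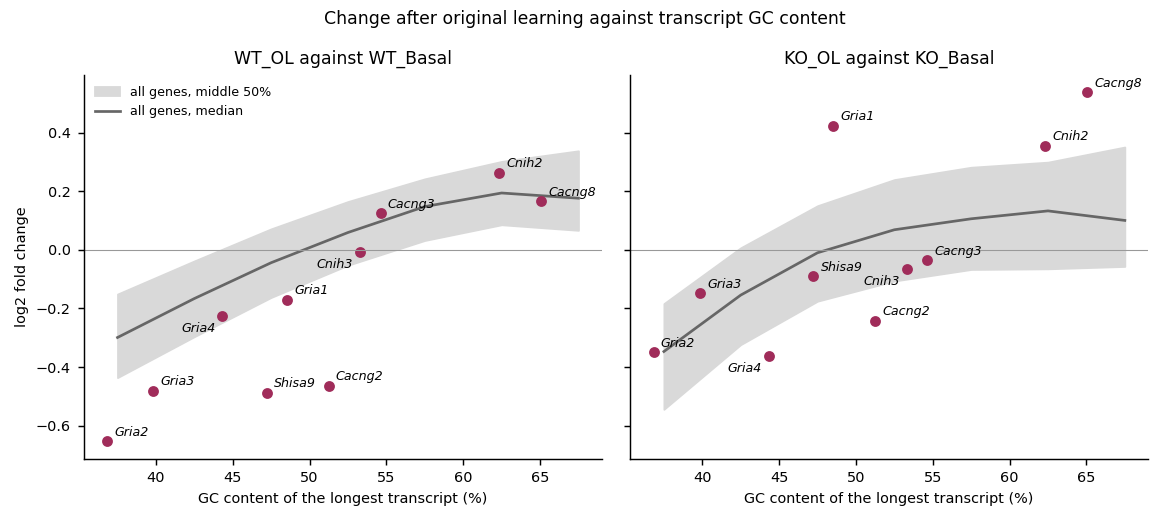
Log2 fold change after original learning in WT mice (left) and *Ccny* KO mice (right) against the GC content of the longest transcript in percent. Points are the 10 members, the line is the median of all genes in steps of 5 percentage points and the band their middle 50%, drawn at the middle of each step. *Gria2* lies to the left of where line and band begin. There it is below the level of the band in WT mice and at the level of the line in KO mice. *Cacng2* lies below the band in both.

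The balance of the pore-forming messages was described next, as a ratio within each library. In the 6 untrained libraries, *Gria1* had 0.871 to 1.04 times the CPM of *Gria2*. In the 12 trained libraries it had 1.24 to 1.74 times as much. No trained library overlapped with an untrained one, in either genotype. Of the summed level per kb of the 4 subunits, *Gria2* held 23.7% to 26.2% in untrained mice (median 24.97%) and 16.3% to 20.6% in trained mice (median 17.8%). *Gria1* held 58.8% to 63.2% in untrained and 65.4% to 72.9% in trained mice. *Gria3* held 9.02% to 9.71% and then 6.51% to 8.63%, and *Gria4* 4.11% to 6.21% and then 3.10% to 6.02%, which overlap.

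After the GC correction, the ratio of *Gria1* to *Gria2* was 1.04 to 1.19 in untrained and 1.11 to 1.55 in trained libraries. The ranges then overlapped through 1 library, WT_OL replicate 2 at 1.11, and every other trained library lay at 1.30 to 1.55. In KO mice the ranges did not overlap, at 1.04 to 1.12 without training and 1.32 to 1.40 after it. The medians over both genotypes were 1.12 and 1.40. The TARPs gave a like picture without correction: the CPM of *Cacng8* was 1.11 to 1.45 times that of *Cacng2* in untrained and 1.73 to 2.43 times in trained libraries. These ranges are descriptions and were not tested.

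**Figure D4:**
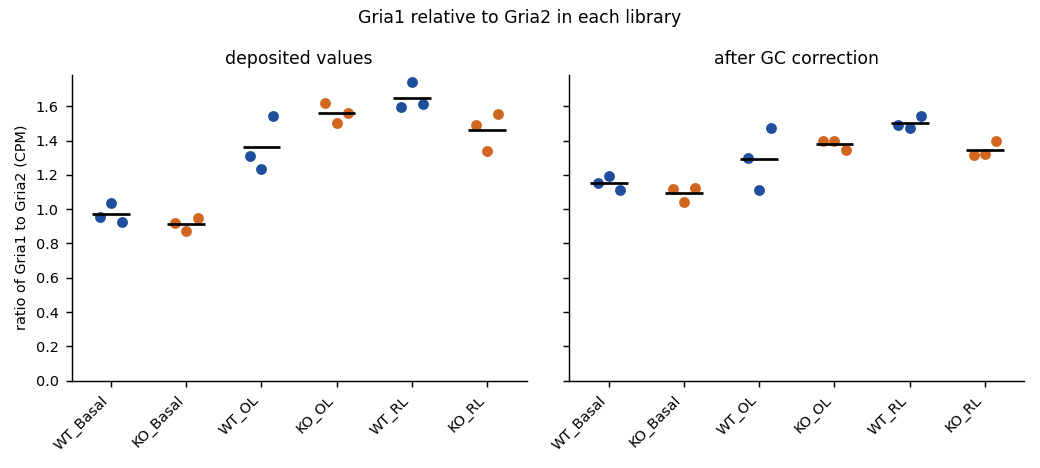
Ratio of *Gria1* to *Gria2* in CPM (vertical axis, starting at 0) in each library of the 6 groups, from the deposited values (left) and after the GC correction (right). Points are mice, blue for WT and orange for *Ccny* KO, and bars are means of 3; on the left the 12 trained libraries lie at 1.24 or above and the 6 untrained ones at 1.04 or below, and on the right WT_OL replicate 2 at 1.11 is the trained library within the untrained range, with the others at 1.30 or above.

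The effect of the *Ccny* knockout was then asked in each training state. In untrained mice no member passed an adjusted p of 0.05 in KO_Basal against WT_Basal, where 0.0196% of all genes did, and 0 of 10 had an unadjusted p under 0.05 in limma, where 4% of all genes did. The log2 differences lay between −0.14 for *Gria1* and 0.24 for *Cacng3* (chr7:122670492-122769393, plus strand), with adjusted p of 0.994 or more. *Cacng3*, a TARP close to *Cacng2*, had 48.9, 48.3 and 52.4 CPM in KO_Basal and 37.8, 42.2 and 46.9 CPM in WT_Basal. *Cacng3* and *Gria4* were higher in each KO_Basal mouse, 2 of 10 members with groups that did not overlap where 14.7% of all genes had such groups. Choroid plexus markers summed to 867 to 4390 CPM in WT_Basal and to 49.3 to 674 CPM in KO_Basal, without overlap, with 0 of 9 called. Astrocyte markers summed to 1729 to 1925 CPM in WT_Basal and to 1950 to 1971 CPM in KO_Basal, also without overlap, with 0 of 5 called. Their part in these differences was not tested.

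After original learning, KO_OL mice were above WT_OL mice in several members, and none passed the adjusted test in limma, where 0.0652% of all genes did. By unadjusted p under 0.05, 4 of 10 members passed where 18% of all genes did, and all 4 were higher in KO_OL. *Shisa9* had 56.4, 60.8 and 54.4 CPM in KO_OL and 45.2, 30.6 and 38.4 CPM in WT_OL, with no overlap (log2 difference 0.59 ± 0.18, limma, adjusted p = 0.159). *Cacng2* was also higher in each KO_OL mouse (0.21 ± 0.10, limma, adjusted p = 0.274), so 2 of 10 members had groups that did not overlap, where 16.5% of all genes did. *Gria1* (0.45 ± 0.17, limma, adjusted p = 0.209) and *Cacng8* (0.39 ± 0.16, limma, adjusted p = 0.234) were higher in the mean, with ranges that overlapped through WT_OL replicate 3. Without that mouse *Gria1* (0.67), *Cacng2* (0.31) and *Cacng8* (0.56) passed, with an adjusted p of 0.0125, 0.0422 and 0.0262 in limma. WT_OL then rests on 2 mice, including the replicate that stood apart. Without that replicate instead, the differences were 0.45 for *Shisa9*, 0.08 for *Cacng2*, 0.20 for *Gria1* and 0.21 for *Cacng8*, and none passed. The summed level of 6 markers of dentate granule neurons was 214, 264 and 481 CPM in the WT_OL mice, lowest in replicate 2, and 317 to 437 CPM in KO_OL. For 9 interneuron markers it was 1085 to 1177 CPM in WT_OL and 1236 to 1282 CPM in KO_OL, without overlap. Astrocyte markers, 5 in number, summed to 1819 to 2320 and 1697 to 1743 CPM, also without overlap. In each of these lists 0 markers were called. The part of these lists in the differences of the members was not tested.

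After reversal learning, KO_RL and WT_RL mice overlapped in all 10 members, where 8.18% of all genes did not. Neither a member nor any other gene passed the adjusted test in limma (0% of all genes), and 0 of 10 members had an unadjusted p under 0.05, where 4.93% of all genes did. The log2 differences lay between −0.09 for *Gria4* and 0.24 for *Shisa9*. Over the 3 training states together, 0 of 10 members passed where 0.0326% of all genes did, and *Shisa9* had the lowest p, at 0.34 ± 0.10 higher in KO mice (unadjusted p = 0.0038, limma, adjusted p = 0.386). It was the 1 member with an unadjusted p under 0.05, where 8.36% of all genes had one.

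**Figure D5:**
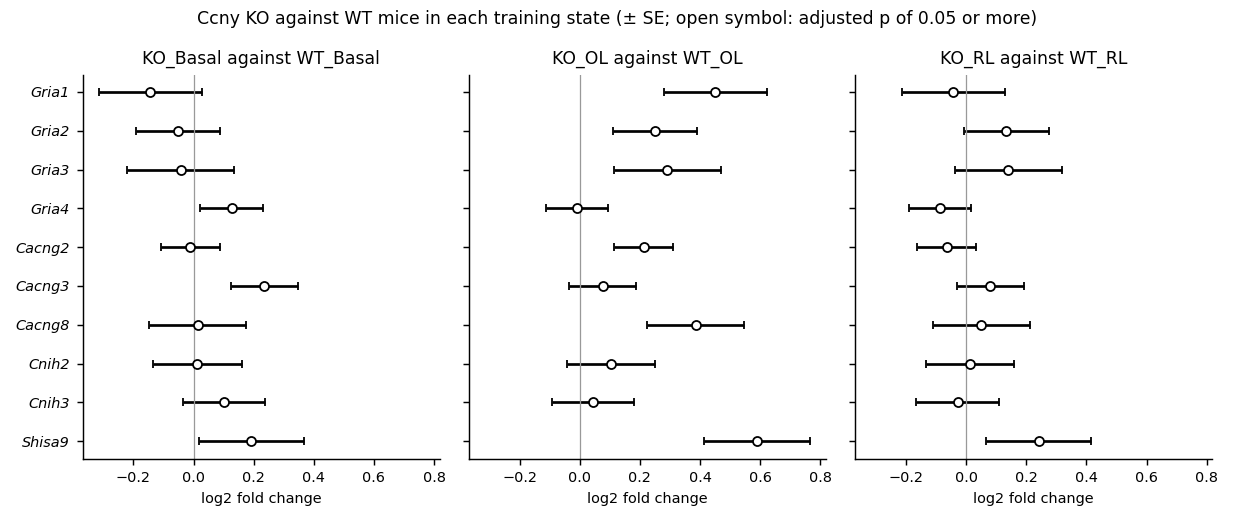
Log2 difference of each of the 10 messages between *Ccny* KO and WT mice (horizontal axes) without training, after original learning and after reversal learning. Circles are differences and bars SE; all circles are open, since no adjusted p is under 0.05, and 9 of 10 lie above 0 after original learning.

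Whether the change with original learning differed between the genotypes was tested by an interaction term. For no member did the difference pass, as for no gene of the table (0%, limma). *Gria1* was the 1 member with an unadjusted p under 0.05, where 12.4% of all genes had one: its change was larger in KO than in WT mice by 0.59 ± 0.24 on the log2 scale (unadjusted p = 0.0258, limma, adjusted p = 0.39). Without WT_OL replicate 3 the difference was 0.81 (adjusted p = 0.0382, limma), and without WT_OL replicate 2 it was 0.35 (adjusted p = 0.765, limma). *Gria2* and *Cacng2* were called in WT mice and not in KO mice, although *Gria2* was called in KO_OL mice too with quantile normalization (−0.49, adjusted p = 0.00607, limma). The adjusted p of the difference between genotypes was 0.475 for *Gria2* and 0.463 for *Cacng2* in limma, so the genotypes were not shown to differ.

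Reversal learning was also compared with original learning alone. In WT mice 0 of 10 members passed where 0.261% of all genes did, and 3 of 10 had an unadjusted p under 0.05 in limma, where 16.4% of all genes had one. *Cacng2* was higher in each WT_RL mouse, at 48.4, 45.4 and 44.9 CPM, than in each WT_OL mouse (log2 difference 0.34 ± 0.10, limma, adjusted p = 0.151), the 1 member without overlap, where 11.1% of all genes had none. *Gria1* (0.44 ± 0.17, limma, adjusted p = 0.245) and *Shisa9* (0.40 ± 0.18, limma, adjusted p = 0.281) had overlapping groups. Without WT_OL replicate 3, *Cacng2* (0.44, adjusted p = 0.0139) and *Gria1* (0.66, adjusted p = 0.0155) passed in limma. Without WT_OL replicate 2 the differences of these 3 members were 0.19 to 0.25, and none passed. In KO mice 0 of 10 members passed, where 0.0196% of all genes did. None had an unadjusted p under 0.05 in limma, where 4.81% of all genes had one, and the 10 log2 differences lay between −0.12 and 0.07. The adjusted p of the genotype difference in this step was 0.635 or more for all 10 members in limma, none had an unadjusted p under 0.05, where 7.98% of all genes had one, and 0% of all genes were called.

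*Cnih3* (chr1:181352628-181460641, plus strand) lay between 58.3 and 91.3 CPM over the 18 libraries, a range of 1.57-fold. Its groups overlapped in each of the 9 comparisons of 2 groups. *Cacng3* lay between 37.2 and 53.0 CPM. Neither passed in any comparison.

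Genes known to act with AMPA receptors were counted as background to the members. Of 20 other auxiliary, assembly and extracellular partners, all listed, 2 rose and 1 fell after original learning in WT mice, and 5 rose and 3 fell in KO mice, where 9.5% and 23.5% of all genes passed. With the GC correction 1 rose and 0 fell in WT mice, and 4 rose and 2 fell in KO mice. The share of all genes called after this correction is not given beside these counts. After reversal learning 2 rose and 1 fell in WT mice, and 6 rose and 2 fell in KO mice, where 15.7% and 23.6% of all genes passed. Their median log2 change after original learning was 0.00 in WT and 0.21 in KO mice, where all genes had 0.00 and −0.01.

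The neuronal pentraxin receptor, *Nptxr*, which helps to cluster AMPA receptors at synapses, changed most. It rose from 5.69, 5.23 and 4.11 CPM to 8.30, 10.7 and 12.5 CPM in WT mice (log2 change 0.93 ± 0.17, limma, adjusted p = 0.00314). In KO mice it rose from 7.41, 8.01 and 6.15 CPM to 16.1, 18.9 and 21.9 CPM (1.28 ± 0.17, limma, adjusted p = 9.31e-05). Neither pair of groups overlapped, and after the GC correction the changes were 0.75 and 1.16 (adjusted p = 0.0221 and 0.000477, limma). *Nptx2*, the secreted pentraxin induced by activity, rose by 0.57 ± 0.14 in WT (limma, adjusted p = 0.0188) and by 0.85 ± 0.14 in KO mice (limma, adjusted p = 0.000612), while after the GC correction the change was 0.41 in WT (adjusted p = 0.147, limma) and 0.73 in KO mice (adjusted p = 0.00345), so that only the second passed. *Prrt1*, or SynDIG4, a receptor-associated membrane protein, rose in KO mice from 40.0 ± 6.07 to 62.5 ± 6.81 CPM (SD, n = 3; 0.64 ± 0.13, limma, adjusted p = 0.00251), and had 0.50 after the GC correction (adjusted p = 0.0159, limma). *Olfm3*, an extracellular olfactomedin with a GC content of 36.7%, fell by 0.60 in WT and 0.94 in KO mice (limma, adjusted p = 0.00824 and 0.00012), and had −0.25 and −0.51 after the GC correction, of which the second passed (adjusted p = 0.00794).

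Of 21 symbols of intracellular binding and trafficking partners, 19 were listed. *Stx4*, which was not, is another symbol of *Stx4a*, which was. After original learning 0 rose and 2 fell in WT mice, and 1 rose and 3 fell in KO mice, where 9.5% and 23.5% of all genes passed. These shares were near those of the whole table. Corrected for GC content, 0 rose and 1 fell in WT mice, and 0 rose and 3 fell in KO mice, again without the share of all genes. After reversal learning 3 rose and 2 fell in WT mice, and 1 rose and 2 fell in KO mice, where 15.7% and 23.6% of all genes passed. *Rab5a*, a GTPase of early endosomes, fell from 124 ± 1.499 to 93.0 ± 6.94 CPM in WT mice (SD, n = 3; log2 change −0.42 ± 0.06, limma, adjusted p = 0.00132) and from 123 ± 1.71 to 93.9 ± 0.847 CPM in KO mice (−0.38 ± 0.06, limma, adjusted p = 0.000632). These changes stayed called after the GC correction, at −0.36 and −0.35. *Rab11a*, of recycling endosomes, fell by 0.36 in WT and 0.56 in KO mice (limma, adjusted p = 0.0107 and 0.00018), and had −0.10 and −0.26 after the correction, of which the second passed. In KO mice *Syt3*, a calcium sensor of receptor internalization, rose by 0.37 ± 0.10 (limma, adjusted p = 0.0114), a call that the GC correction ended (0.25, adjusted p = 0.123). The SNARE gene *Stx4a* fell by 0.31 on the log2 scale in KO mice (limma, adjusted p = 0.00743), and by 0.40 after the correction (adjusted p = 0.00153). No gene of either partner list was called between KO_OL and WT_OL.

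The members were also compared with each other and with the whole table by the correlation of log2 values over the 18 libraries, given as a description, since the libraries share their groups, depth and GC trend. *Gria1* and *Cacng8* moved together (Pearson r = 0.90), as did *Gria2* and *Gria3* (0.90) and *Gria2* and *Cacng2* (0.84). *Gria4* and *Cnih2* moved apart (−0.80). *Gria1* and *Gria2*, which share many neurons, had an r of 0.21. The genes most like *Gria1* were *Mgat3* (0.98), *Sez6l* (0.98) and *Dpp6* (0.98), and those most like *Gria2* included *Rab11fip2* (0.97) and *Asb3* (0.96). Those most like *Gria3* were *Celf2* (0.97), *Pgm2l1* (0.96) and *Spast* (0.96), and those most like *Gria4* were *Hspa13* (0.91), *Mgat4c* (0.91) and *Zfp191* (0.91).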

How the data were processed

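Poly-A RNA of each hippocampus sample gave 1 library of paired reads. The authors aligned reads to mm10 with STAR 2.5.1, counted them on genes and applied the TMM normalization of edgeR 3.12.1 (versions from the submitters' processing notes, with R 3.3.0). The deposited log2 values are log2(CPM + 1): in 100% of cases 2 to the power of the value, minus 1, was a whole number of reads within 0.01 read, although the study's methods describe CPM floored at 1. One read was worth 0.0274 to 0.0333 CPM, and each member had at least 1014 reads per library. The annotation behind the counting and its strand setting are not given in the sources used here, and the labels and the methods name different kits, of which that in the labels is stranded.

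All 15329 genes were fitted with limma 3.58.1 in R 4.3.3 (1 mean per group over 18 libraries, 12 residual degrees of freedom, eBayes with a trend), two-sided, with Benjamini-Hochberg adjustment over all genes. SE are from this fit. A difference over the 3 training states and the differences between genotypes were contrasts of the same fit. GC content and length came from GENCODE M21 (99.3% of genes matched), and the GC correction subtracted from each library a loess curve (span 0.3) of its deviations against GC content. The fit was tested on simulated data. Figures used Python 3.11.15 with numpy 2.4.6, pandas 2.3.3 and matplotlib 3.10.9, and library weights statmod 1.5.0.

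Named partners are up to 4 called genes per list with the largest change after original learning in WT and in KO mice, and the 3 genes most correlated with each *Gria* gene, of which 1 is not reported here. Members and lists were chosen with earlier results of these data known. The labels do not say that replicates are separate animals, which the study's text does, so p-values cover the spread between these libraries. No pair of libraries of the same group agreed within sampling noise, and pairs across groups were not compared in this way. Replicate numbers did not pair the samples. Alternatives were median-of-ratios and quantile scaling, CPM floored at 1, a pseudocount of 0.1, a filter at a mean log2 value of 2, no variance moderation, only the libraries compared, library weights, recovered reads with voom, a replicate block, GC correction, both GC and length correction, and leaving out each mouse.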

Additional observations from a re-analysis of the deposited data

How the results depend on the processing

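Counts of called members are given in the order WT_OL, KO_OL, WT_RL and KO_RL against their untrained controls, with 2, 2, 1 and 2 as reported. The share of all genes called is given for the reported fit only, so whether other genes gained or lost calls alike is not shown. With GC correction the counts were 1, 0, 0 and 0, and with GC correction and a replicate block the same 1, 0, 0 and 0. In the first comparison the 1 call was *Cacng2*. With GC and length correction, an alternative chosen after seeing the data, the counts were 1, 3, 0 and 1, with *Cacng2*, *Cnih2* and *Gria4* called in KO_OL. With only the libraries compared, where each fit estimates its own spread, WT_OL had 0 and KO_OL 6 calls. With library weights, KO_OL had 5, WT_RL 2 and KO_RL 4 calls, KO_OL against WT_OL had 3, and the difference between genotypes in the change from Basal to OL had 1. Without variance moderation KO_OL had 1 and KO_RL 1, and with CPM floored at 1 KO_RL had 1. The cause of these changes in the counts was not tested. The replicate numbers pair no samples by their correlation (−0.67 to 0.62). A replicate block alone gave 2, 2, 1 and 2 calls and 0 in the other comparisons.

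Leaving out 1 mouse at a time gave 2 to 3 calls for WT_OL, 0 to 2 for KO_OL, 0 to 1 for WT_RL and 0 to 2 for KO_RL against their controls, 0 to 2 for WT_RL against WT_OL, 0 to 3 for KO_OL against WT_OL and 0 to 1 for the genotype difference in the change to OL, and 0 elsewhere. The direction turned for *Gria1* in WT_OL without replicate 2 of that group (0.0769, over −0.388 to 0.0769) and for *Cacng8* in WT_OL (−0.0546 with GC correction with and without block, −0.0400 with length too, and −0.00689 to 0.347 leaving out 1 mouse, the lowest without WT_OL replicate 3). It turned for *Gria2* with GC correction, with and without block, in KO_OL (0.0798) and KO_RL (0.0605). The median share of *Gria2* with longest transcripts was 29.4% in untrained and 21.7% in trained mice, against 24.97% and 17.8%. Both scalings moved the median of all genes by less than 0.02, but quantile normalization added *Gria2* in KO_OL (−0.49) and KO_RL (−0.45), for 3 calls in each. No paired analysis was made of the shares, which come from no test. With 1014 or more reads per member, the spread between 3 mice limits the precision rather than counting.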
